A study of Homo sapiens with 9 samples.

Results

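Collagens and laminins are the main structural protein families of the extracellular matrix. They were described here across 9 RNA sequencing libraries of H1299, a human cell line established from a non-small cell lung carcinoma. The 56 genes were all protein-coding genes of GENCODE release 29 with a symbol of the form COL, number, A, number (44 collagen genes) or LAMA, LAMB or LAMC with a number (12 laminin genes), out of 58721 genes counted. The rule uses symbols and gene types alone. Of the 56 genes, 32 had enough counts to be tested.

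The series asked how gene expression in these cells responded to interventions linked to circadian rhythm. Control cells were kept in serum free medium. The siCLOCK cells received small interfering RNA against CLOCK, a transcription factor that drives the circadian clock, and the third group received 0.1 mM melatonin, the hormone of darkness. Each group had 3 libraries. The labels name no non-targeting siRNA and no treatment time. The series calls the 3 samples of a group independent but does not say that they came from separate cultures, so each p-value rests on a spread that may be technical.

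Collagen chains wind around each other into a rope-like helix, and the types differ in what they build: fibrils, basement membrane networks, beaded filaments, anchoring fibrils, or collagens that sit on fibril surfaces or in the cell membrane. Each laminin is a protein made of an alpha, a beta and a gamma chain. Laminins and type IV collagen both build the basement membrane on which lung epithelium rests. Cells attach to both families through integrins and other receptors.

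Each library held between 15384539 (melatonin replicate 1) and 19192962 (siCLOCK replicate 2) counts on genes. The libraries fell into 2 technical sets that cut across the groups: unmapped reads made up 1.22% to 1.36% in the controls and siCLOCK replicates 1 and 2, and 2.24% to 2.34% in the melatonin libraries and the library labelled siCLOCK replicate 3. The first set thus lacks melatonin and the second lacks controls, and melatonin can be separated from the set only through the library labelled siCLOCK replicate 3. CLOCK itself stood at 39.0, 38.6 and 44.4 CPM (counts scaled to library depth) in control and at 20.9, 32.0 and 38.1 CPM in siCLOCK. The difference did not pass (log2 fold change -0.42, SE 0.14, adjusted p = 0.340), and an exact two-sided permutation test gave p = 0.1, the smallest that 3 against 3 libraries allow. The library labelled siCLOCK replicate 3 lay close to the controls in CLOCK, at 93.8% of their mean, so every statement on siCLOCK rests on its label. Markers of cells that make much matrix in tissue were scarce or nearly absent. Of 9 fibroblast markers 1 (DCN) was tested, the 9 summed to between 1.29 and 2.39 CPM in control, 1.34 and 1.73 CPM in siCLOCK and 1.77 and 2.13 CPM in melatonin, and LUM and THY1 were at 0 in every library. The 5 endothelial markers summed to at most 5.53 CPM, and 2 of them, PECAM1 (1.97 to 4.08 CPM) and KDR, were tested. Of these, 1 was lower in melatonin than in siCLOCK, where 10.1% of all genes were lower. The carcinoma line markers KRT8, KRT18 and VIM were expressed, with sums of 2157 to 2498 CPM in control, 2230 to 2449.9 CPM in siCLOCK and 1818 to 1874 CPM in melatonin.

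All 56 genes had at least 1 count. The 24 that were not tested had between 1 (COL6A5) and 62 (COL21A1) counts over the 9 libraries together, and none exceeded 0.620 CPM in any library. They included COL1A2 with 4 counts and COL3A1 with 7, the partner chain of type I collagen and the type III chain of connective tissue fibrils, and COL2A1 of cartilage with 15. They also included COL4A1 with 9 counts and COL4A2 with 11, the type IV chains found in nearly all basement membranes. LAMA1 of the early embryonic basement membrane had 9 counts and LAMB4 had 2. None of the 3 short-chain network genes (COL8A1, COL8A2 and COL10A1) was tested. The other 12, COL5A3, COL6A6, COL9A1, COL9A2, COL14A1, COL15A1, COL19A1, COL20A1, COL22A1, COL23A1, COL24A1 and COL28A1, had 2 to 48 counts each in all. At these depths their presence or absence in the cells cannot be stated beyond these counts.

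By class, 6 of 11 fibrillar collagens were tested, 4 of 6 type IV chains, 3 of 5 type VI chains, the single type VII chain, 3 of 10 fibril-associated collagens (FACIT), 3 of 4 transmembrane collagens, 1 of 2 multiplexins and 1 of 2 other collagens. Among laminins, 4 of 5 alpha chains, 3 of 4 beta chains and all 3 gamma chains were tested. Of the 32 tested genes, 15 had a mean of at least 10 CPM and 14 a mean under 3 CPM. With detection set instead at 1 CPM in at least 3 libraries, 29 genes were detected.

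To compare genes with each other, CPM was divided by the length of a gene's exons in kilobases. On this scale laminin chains and type VI collagen led: LAMB2 at 19.4 CPM per kb, LAMC1 at 18.6, COL6A2 at 18.1, LAMB1 at 17.9, LAMB3 at 15.3 and COL6A1 at 13.4. LAMB2 lay at percentile 83.5 of the 13061 protein-coding genes tested. COL18A1 (10.8 CPM per kb), COL13A1 (9.60) and LAMA5 (8.18) followed, and no fibrillar collagen exceeded 1.45 CPM per kb (COL27A1). Reads that overlap more than 1 gene stand in a separate ambiguous line of the files, which lowers some genes: the counts of the single strands, which may take in reads of an opposite-strand neighbour, summed to 1.71 times the count used for LAMA5 and 1.66 times for COL18A1. The factor was 1.30 for COL4A3, 1.16 for COL9A3, 1.13 for LAMA4, 1.08 for COL16A1 and LAMB1 and 1.05 for LAMA2. Exon length pools alternative exons, so genes with alternative starts such as LAMA3 read low per kb.

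**Figure D1:**
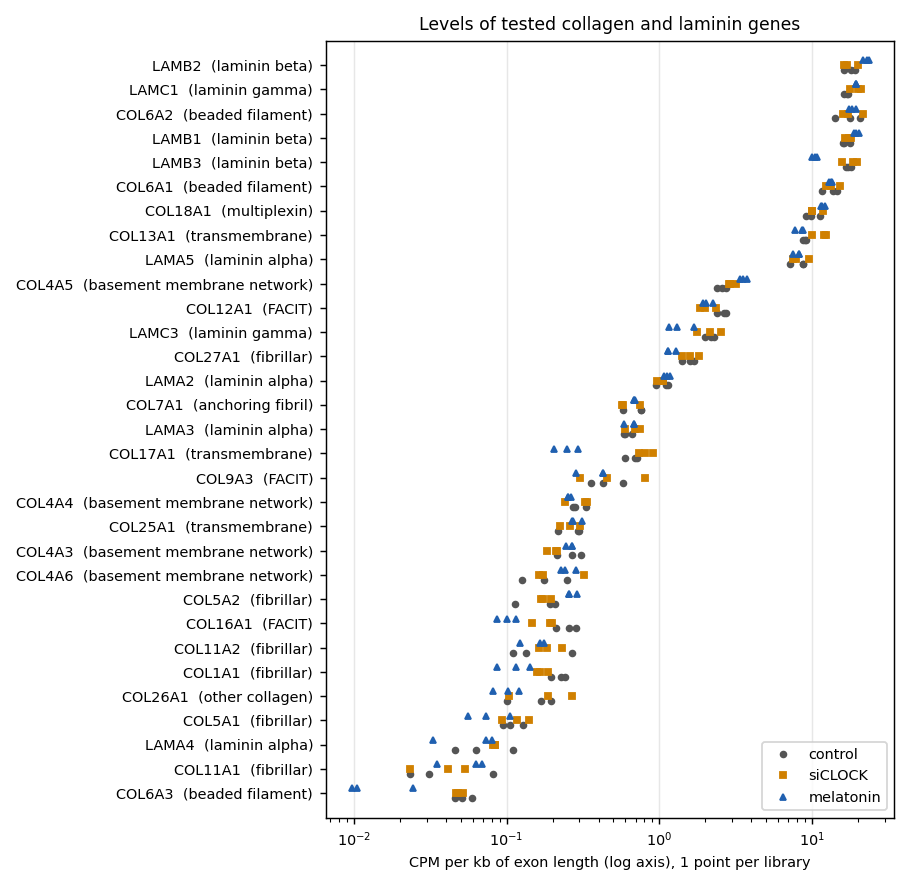
Level of tested collagen and laminin genes as CPM per kb of exon on a log axis, with 1 point per library, genes ordered by mean level and the class in brackets. LAMB2, LAMC1, COL6A2 and LAMB1 sit at the top, and COL6A3 (mean 0.0387 CPM per kb) at the bottom.

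Between siCLOCK and control, no collagen or laminin gene passed the test (edgeR quasi-likelihood, adjusted p under 0.05): 0 of 32 were higher and 0 lower, where 0.122% of all 16441 tested genes passed in either direction (0.0547% higher and 0.0669% lower). At an unadjusted p under 0.05 there were 6 of the 32, among them COL4A5, COL12A1, COL16A1, COL13A1 and LAMC1, against 8.24% of all genes. DESeq2 called 2 genes higher, among them COL13A1 (log2 fold change 0.35, adjusted p = 0.0162), and limma-voom called none. The median log2 fold change of the 32 was 0.06, against 0.00 over all genes. Without the library labelled siCLOCK replicate 3, edgeR called 2 genes higher, among them LAMC1 (0.28, adjusted p = 0.0412). In a fit with a term for the technical set, 2 genes were higher, among them LAMC1 (0.28, adjusted p = 0.0371), and none of the 32 was lower, where 0.444% of all genes were higher and 0.262% lower. In that fit siCLOCK against control also rests on siCLOCK replicates 1 and 2 alone, so it is no separate check. The siCLOCK libraries lay wholly above the controls for 5 of the 32 genes and wholly below for 4, against 5.75% and 5.06% of all genes. Without siCLOCK replicate 1, COL13A1 (0.44, adjusted p = 0.00322) was called higher and COL12A1 (-0.44, adjusted p = 0.0317) lower. For DESeq2 and the fits without a library, the share of all genes called was not computed. Their counts are therefore given as a description only.

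Between melatonin and control, 12 of the 32 genes passed, 4 higher (COL4A5, LAMB1, LAMB2 and LAMC1) and 8 lower (COL1A1, COL27A1, COL6A3, COL12A1, COL16A1, COL17A1, LAMB3 and LAMC3). That is 37.5% of the tested genes, against 23.1% of all genes tested (11% higher and 12.1% lower). The median log2 fold change of the 32 was -0.05, against 0.01 over all genes. Of the 22 tested collagens 1 was higher and 6 lower, and of the 10 tested laminins 3 were higher and 2 lower. The melatonin libraries lay wholly above the controls for 6 of the 32 genes and wholly below for 10, against 21.9% and 21.4% of all genes. In this and any bulk measurement, fewer cells of a kind and less RNA per cell cannot be told apart.

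Between melatonin and siCLOCK, 10 of the 32 passed, 2 higher (COL4A5 and LAMB2) and 8 lower (among them COL27A1, COL6A3, COL16A1, COL13A1, COL17A1, LAMB3 and LAMC3), against 17.5% of all genes (7.43% higher and 10.1% lower). The median log2 fold change of the 32 was -0.06, against 0.00 over all genes. The melatonin libraries lay wholly above the siCLOCK ones for 6 genes and wholly below for 10, against 16.8% and 17.4% of all genes. Both melatonin comparisons use the same melatonin libraries, so the values of both are set side by side for each gene.

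The controls share no technical set with melatonin, so the melatonin calls were also read from a fit with a term for the set. In that fit melatonin against control had 1 gene higher (LAMC1) and 3 lower (COL16A1, COL17A1 and LAMB3), where 1.72% of all genes were higher and 2.96% lower. All 12 genes called without the term kept their sign, and 4 kept their call. Against siCLOCK it had 1 higher (LAMB2) and 3 lower (COL13A1, COL17A1 and LAMB3), where 2% of all genes were higher and 3.85% lower. All 10 genes kept their sign. Here and below, melatonin against siCLOCK with the set term compares melatonin with the library labelled siCLOCK replicate 3 alone. Its calls thus rest on 1 siCLOCK library. Melatonin against control with the term adds to that difference the one between siCLOCK replicates 1 and 2 and the controls. The median SE over all genes rose from 0.101 to 0.169 with the term for melatonin against control.

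**Figure D2:**
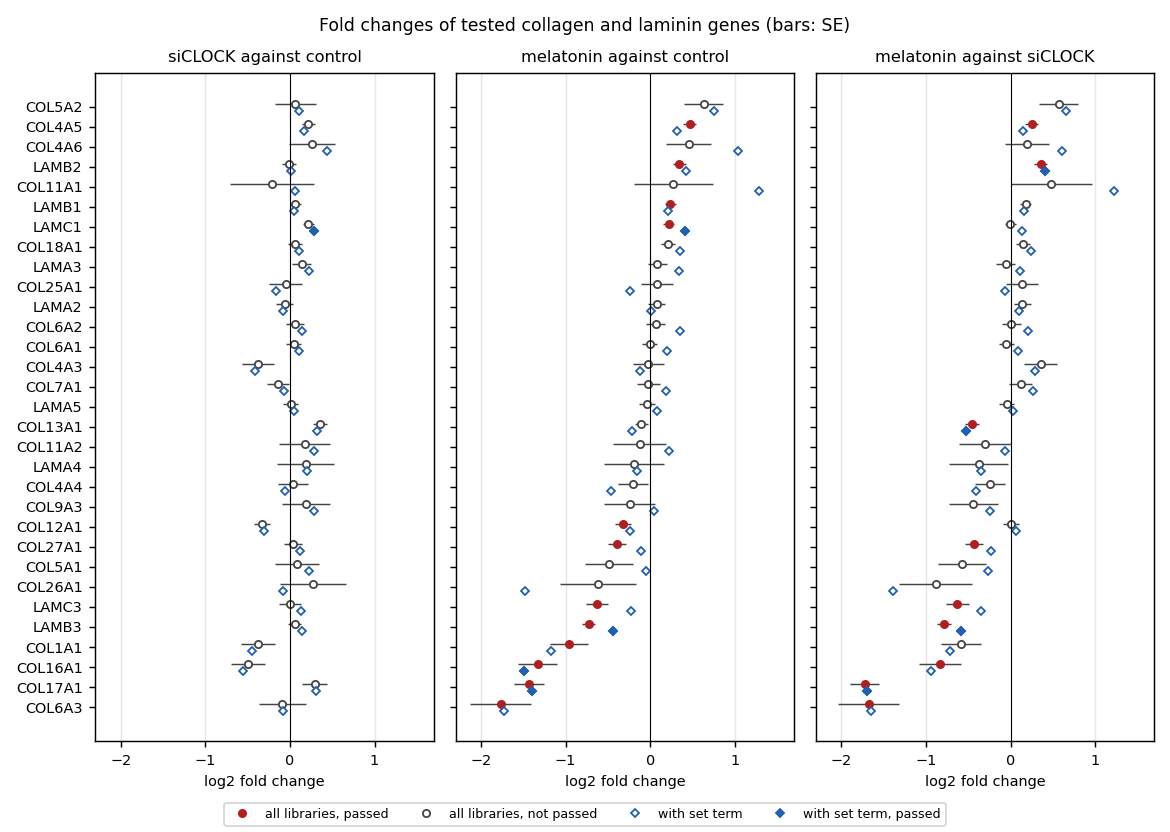
Log2 fold change with its SE for tested collagen and laminin genes in the 3 comparisons, filled where adjusted p was under 0.05, with blue diamonds for the fit that has a term for the technical set. COL17A1 and LAMB3 are filled on the lower side in both melatonin comparisons, and in siCLOCK against control the diamond of LAMC1 is the only filled symbol drawn.

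**Figure D3:**
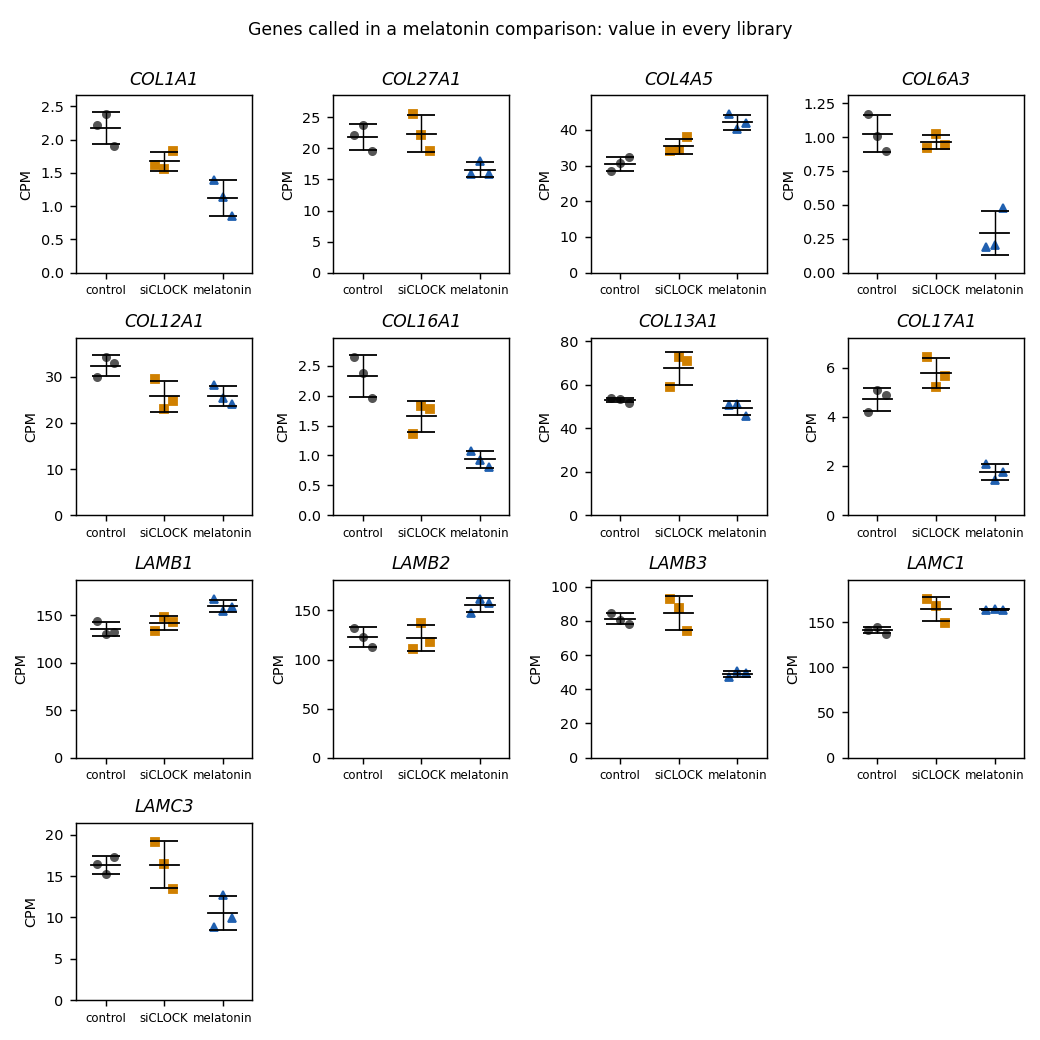
Level in CPM in every library for genes called in either melatonin comparison, with bars at the mean and at 1 SD above and below it for 3 libraries per group. The melatonin libraries of LAMB3 (47.2 to 50.5 CPM) lie below every control library (78.4 to 84.6 CPM).

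The bases before the starts of 4 genes are printed with their results: COL4A5 for the region between its start and that of COL4A6, and COL17A1, LAMB3 and LAMC1 as 3 of the 4 genes called in melatonin against control in both fits. Each comes from RefSeq (GRCh38.p14), along the gene's own strand, within 250 bases before the start and without bases in annotated exons. Windows of 250 bases were found for 41 of the 56 genes, with 55 annotated starts. The E-box CACGTG, the letters that CLOCK with its partner is known to bind, was in 0 of the 55, against 6.34% of 35116 windows of all genes. The AP-1 letters TGANTCA were in 3 of 55 (5.45%, against 6.57%) and the GC box GGGCGG in 32 of 55 (58.2%, against 42.6%), on either strand. The absence of these letters says nothing on the factor outside this window.

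Fibrillar collagens build the banded fibrils of connective tissue. Of the 6 tested, 2 were lower with melatonin than in control and none was higher. COL27A1 (chromosome 9, 114155560 to 114312511, GRCh38), which encodes a cartilage-associated fibrillar chain, read 22.1, 23.7 and 19.6 CPM in control, 25.5, 22.1 and 19.6 CPM in siCLOCK and 15.95, 17.9 and 15.9 CPM in melatonin. All 3 melatonin libraries lay below the other 6 (against control log2 fold change -0.39, SE 0.11, adjusted p = 0.0112, and against siCLOCK -0.43, SE 0.10, adjusted p = 0.00841). Neither passed in the fit with the set term (-0.11, adjusted p = 0.779, and -0.24, adjusted p = 0.338) or on the reads of one strand (-0.33, adjusted p = 0.0782, and -0.36, adjusted p = 0.0727). On the reads of the other strand both differences passed (-0.44, adjusted p = 0.0119, and -0.48, adjusted p = 0.00897). The difference from control also missed the threshold when control replicate 2 (adjusted p = 0.0703) or melatonin replicate 3 (adjusted p = 0.0514) was left out.

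COL1A1 (chromosome 17, 50183289 to 50201632), the major chain of type I collagen, was scarce, at 2.23, 2.38 and 1.91 CPM in control, 1.62, 1.56 and 1.84 CPM in siCLOCK and 1.39, 1.14 and 0.852 CPM in melatonin. The order of the 3 groups shows no overlap at any step, with melatonin lowest. Its fall against control passed (-0.96, SE 0.22, adjusted p = 0.00437), and that against siCLOCK did not (-0.58, SE 0.23, adjusted p = 0.0929). The former was -1.17 (adjusted p = 0.0986) with the set term, and on the reads of one strand it was -0.51 (adjusted p = 0.294). On the reads of the other strand it passed, at -1.47 (adjusted p = 0.00498). The partner chain COL1A2 had 4 counts in all. COL5A2, which helps to start fibrils, stood at 1.27 ± 0.375 CPM in control against 1.99 ± 0.132 CPM in melatonin (means ± SD, n = 3, here and below) and did not pass (0.63, SE 0.23, adjusted p = 0.0530). COL5A2 was called higher with limma-voom, with protein-coding genes only and with only the 6 libraries compared (adjusted p between 0.0363 and 0.0489). The same held without control replicate 1 or the library labelled siCLOCK replicate 3 (adjusted p = 0.0488 and 0.0496). COL5A1, COL11A1 and COL11A2 had means between 0.358 and 1.30 CPM in each group and none passed. On the reads of one strand COL5A1 was lower with melatonin than in control (-1.38, adjusted p = 0.0163) and siCLOCK (-1.29, adjusted p = 0.0345). On those of the other strand it was not called, and on all reads the difference from control was -0.49 (adjusted p = 0.235). COL5A1 had 12 to 29 counts a library, which the strands divide between them.

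Type IV collagen chains form the mesh of the basement membrane. COL4A5 (chromosome X, 108439844 to 108697545), the chain altered in X-linked Alport syndrome, was the one type IV chain with an appreciable level. It read 28.5, 30.6 and 32.3 CPM in control, 33.97, 34.4 and 37.9 CPM in siCLOCK and 44.3, 40.1 and 41.9 CPM in melatonin. The 3 groups stood in that order with no overlap. The rise with melatonin was 0.47 (SE 0.08, adjusted p = 3.32e-04) against control and 0.25 (SE 0.08, adjusted p = 0.0337) against siCLOCK. The siCLOCK difference from control was 0.22 (SE 0.08, adjusted p = 0.419). Adding the set term gave 0.32 (adjusted p = 0.181) and 0.15 (adjusted p = 0.447). Against siCLOCK the call was lost without siCLOCK replicate 1 or 2 or without any 1 melatonin library (adjusted p between 0.0614 and 0.156). It was also lost with no filter on low counts (adjusted p = 0.0733) and on the reads of one strand (0.13, adjusted p = 0.387). On the other strand it passed (0.34, adjusted p = 0.0120).

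Type IV genes lie in head-to-head pairs that share a short region between opposite starts. COL4A5 and COL4A6 start 380 bases apart on chromosome X (RefSeq, GRCh38.p14), COL4A3 and COL4A4 start 419 bases apart on chromosome 2, and COL4A1 and COL4A2 start 127 bases apart on chromosome 13. COL4A6 had 1.703 ± 0.569 CPM in control and 2.33 ± 0.278 CPM in melatonin, with overlapping libraries (0.45, SE 0.27, adjusted p = 0.243). COL4A5 made up 77.5% of the summed CPM per kb of the 4 tested type IV genes in control, 80.4% in siCLOCK and 82.2% in melatonin. Those shares include the loss of overlapping reads described above for COL4A3. COL4A3 and COL4A4, the chains that accompany COL4A5 in kidney and lung basement membrane, had 2.40 ± 0.425 and 2.97 ± 0.327 CPM in control and 2.38 ± 0.120 and 2.58 ± 0.0612 CPM in melatonin, and neither passed. The stretch before the COL4A5 start is shown because it is part of the region between the starts of the pair, with capitals on the 121 bases that also lie in the window before COL4A6 (chrX:108439588-108439837, plus strand).
COL4A5: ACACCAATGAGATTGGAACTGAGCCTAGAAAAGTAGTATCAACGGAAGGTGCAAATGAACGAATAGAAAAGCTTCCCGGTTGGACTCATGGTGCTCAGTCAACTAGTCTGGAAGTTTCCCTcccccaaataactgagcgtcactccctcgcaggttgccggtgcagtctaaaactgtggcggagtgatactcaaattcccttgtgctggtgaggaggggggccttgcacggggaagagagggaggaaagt

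Type VI collagen makes beaded filaments at the edge of the basement membrane. COL6A2, the collagen with the highest level per kb, read 111, 96.1 and 76.4 CPM in control, 93.1, 116 and 86.0 CPM in siCLOCK and 94.2, 98.1 and 104 CPM in melatonin. COL6A1 read 71.2 ± 8.39 CPM in control, 73.4 ± 8.02 in siCLOCK and 70.8 ± 1.85 in melatonin. The groups of both genes overlap, and neither passed in any comparison (melatonin against control 0.07, SE 0.11, adjusted p = 0.721 for COL6A2 and -0.01, SE 0.09, adjusted p = 0.958 for COL6A1). COL6A3 (chromosome 2, 237324003 to 237414375), the third chain of the classic molecule, was nearly absent. It had 22, 19 and 16 counts in control (1.17, 1.01 and 0.898 CPM), 17, 19 and 18 in siCLOCK and 3, 4 and 9 in melatonin (0.189, 0.207 and 0.480 CPM). Its fall passed against control (-1.77, SE 0.36, adjusted p = 0.00162) and siCLOCK (-1.68, SE 0.36, adjusted p = 0.00384) and in neither when the set term was added (-1.73 and -1.65, adjusted p = 0.0950 and 0.0528). It was tested only because control and siCLOCK held enough counts.

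COL7A1, which makes the anchoring fibrils that tie epithelium to the stroma, stayed between 6.35 and 8.42 CPM in all libraries and did not pass in any comparison (melatonin against control -0.02, SE 0.13, adjusted p = 0.923).

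FACIT collagens attach to the surface of fibrils. COL12A1 (chromosome 6, 75084326 to 75206051) was the abundant one, at 29.9, 34.3 and 33.0 CPM in control, 29.5, 23.05 and 24.7 CPM in siCLOCK and 28.2, 25.3 and 24.1 CPM in melatonin. Every siCLOCK and melatonin library lay below every control. The difference with melatonin passed (-0.33, SE 0.10, adjusted p = 0.0198), and that with siCLOCK, of the same size (-0.33, SE 0.10), did not (adjusted p = 0.269). The melatonin call was lost when the set term was added (-0.24, adjusted p = 0.474). It was also lost when control replicate 2 or 3 or melatonin replicate 2 or 3 was left out, with adjusted p between 0.0530 and 0.0956. The same held on the reads of one strand (adjusted p = 0.0552), while on those of the other it passed (-0.36, adjusted p = 0.0177). COL16A1 (chromosome 1, 31652247 to 31704319) fell from 2.65, 2.38 and 1.96 CPM in control, with 1.35, 1.83 and 1.78 CPM in siCLOCK, to 1.07, 0.930 and 0.799 CPM in melatonin. The groups stood in that order with no overlap. It passed against control (-1.33, SE 0.23, adjusted p = 4.37e-04) and in the fit with the set term (-1.49, adjusted p = 0.0385). Against siCLOCK it passed as well (-0.83, SE 0.25, adjusted p = 0.0252), but with the set term it did not (-0.94, adjusted p = 0.109), nor without siCLOCK replicate 2 or 3 or melatonin replicate 2 or 3 (adjusted p between 0.0504 and 0.108). That call was also lost with DESeq2 (adjusted p = 0.0708) and on the reads of either strand alone (adjusted p = 0.157 and 0.134). COL9A3, a cartilage FACIT chain, did not pass, with 1.39 to 3.92 CPM over all libraries.

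Transmembrane collagens span the cell surface. COL17A1 (chromosome 10, 104031286 to 104085957), the hemidesmosome collagen that grips the basement membrane beneath epithelial cells, read 4.19, 5.08 and 4.88 CPM in control, 6.44, 5.21 and 5.67 CPM in siCLOCK and 2.08, 1.45 and 1.76 CPM in melatonin. No melatonin library exceeded 2.08 CPM and no other library fell below 4.19 CPM. The fall was -1.43 (SE 0.18, adjusted p = 1.45e-05) against control and -1.72 (SE 0.17, adjusted p = 3.01e-06) against siCLOCK. Both passed in the fit with the set term, at -1.39 (adjusted p = 0.00395) and -1.70 (adjusted p = 7.90e-05). The library labelled siCLOCK replicate 3, in the same technical set as melatonin, read 5.67 CPM and is the only siCLOCK library behind the -1.70. The bases before the COL17A1 start (chr10:104085958-104086130, minus strand) held none of the 3 motifs searched.
COL17A1: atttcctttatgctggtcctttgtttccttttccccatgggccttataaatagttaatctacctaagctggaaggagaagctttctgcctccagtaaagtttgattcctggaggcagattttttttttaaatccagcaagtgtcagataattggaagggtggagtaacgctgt

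COL13A1 (chromosome 10, 69801867 to 69964275), a membrane collagen known from neuromuscular junctions, was the abundant one of this class. It read 53.6, 53.3 and 51.7 CPM in control, 58.9, 72.7 and 70.9 CPM in siCLOCK and 50.8, 51.3 and 45.7 CPM in melatonin. The siCLOCK libraries lay above all others. Melatonin was lower than siCLOCK (-0.46, SE 0.08, adjusted p = 7.57e-04), and its difference from control did not pass (-0.10, SE 0.08, adjusted p = 0.387). With the set term the former was -0.53, against the library labelled siCLOCK replicate 3 alone. COL25A1 had 1.91 to 2.74 CPM and did not pass. Of the remaining classes, COL18A1, the multiplexin from which endostatin is cut, had 86.4 ± 9.21 CPM in control, 90.2 ± 9.33 in siCLOCK and 100.2 ± 3.26 in melatonin and did not pass (melatonin against control 0.21, SE 0.08, adjusted p = 0.0667). COL18A1 was called higher against control with only the 6 libraries compared (adjusted p = 0.00950). The same held without control replicate 1 (adjusted p = 0.0241) or the library labelled siCLOCK replicate 3 (adjusted p = 0.0463). COL26A1 had 5 to 16 counts a library and did not pass.

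Laminin alpha chains carry the receptor-binding end of the molecule, and none of the 4 tested passed in any comparison. LAMA5, the alpha chain of most adult epithelial basement membranes, read 126, 125 and 103 CPM in control, 107, 137 and 112 CPM in siCLOCK and 108, 117 and 118 CPM in melatonin. LAMA3, the alpha chain of the epithelial anchoring laminin, had 9.01 ± 0.589 CPM in control, 9.95 ± 1.06 in siCLOCK and 9.56 ± 0.803 in melatonin. LAMA2, known from muscle basement membrane, had 11.1 ± 0.988, 10.6 ± 0.568 and 11.7 ± 0.529 CPM, and LAMA4 had at most 1.27 CPM. The melatonin differences from control were 0.08 for LAMA2 (SE 0.10) and LAMA3 (SE 0.11) and -0.04 (SE 0.09) for LAMA5. LAMA5 made up 82.4% of the summed CPM per kb of the 4 alpha genes in control and 81.3% in melatonin, with the loss of overlapping reads described above included.

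Of the 3 tested laminin beta chains, 2 rose and 1 fell with melatonin against control. LAMB3 (chromosome 1, 209614870 to 209652466), the beta chain of the epithelial anchoring laminin, read 84.6, 80.6 and 78.4 CPM in control, 92.6, 87.2 and 73.8 CPM in siCLOCK and 47.2, 50.5 and 49.3 CPM in melatonin. The melatonin libraries lay below all 6 others, and the lowest of those 6 was the library labelled siCLOCK replicate 3. The fall was -0.73 (SE 0.08, adjusted p = 3.38e-06) against control and -0.79 (SE 0.08, adjusted p = 3.16e-06) against siCLOCK. With the set term it was -0.44 (adjusted p = 0.0241) and -0.59 (adjusted p = 1.86e-04), a smaller fall than without the term. The bases before 1 of its 3 annotated starts (chr1:209651395-209651624, minus strand) held an AP-1 motif and a GC box, both in capitals. This start is shown because its window held the most motifs; the windows before the other two held a GC box and no AP-1 motif.
LAMB3: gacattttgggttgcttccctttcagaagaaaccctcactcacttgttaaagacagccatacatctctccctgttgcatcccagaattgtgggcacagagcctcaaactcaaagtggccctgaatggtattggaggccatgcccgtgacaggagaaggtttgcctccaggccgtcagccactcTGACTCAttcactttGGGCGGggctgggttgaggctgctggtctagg

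LAMB2 (chromosome 3, 49121114 to 49133118), the beta chain of kidney filter and neuromuscular junction, read 133, 123 and 112 CPM in control, 111, 137 and 117 CPM in siCLOCK and 148, 161 and 157 CPM in melatonin. All melatonin libraries lay above all others (0.34, SE 0.08, adjusted p = 0.00428 against control, and 0.35, SE 0.08, adjusted p = 0.00496 against siCLOCK). Adding the set term gave 0.42 (adjusted p = 0.0793) and 0.41 (adjusted p = 0.0256). LAMB1 (chromosome 7, 107923799 to 108003255), the widespread beta chain, read 144, 131 and 132 CPM in control, 134, 148 and 143 CPM in siCLOCK and 167, 155 and 159 CPM in melatonin. Its rise against control was 0.24 (SE 0.07, adjusted p = 0.0128) and was lost when the set term was added (0.21, adjusted p = 0.332). Leaving out control replicate 2, melatonin replicate 1 or melatonin replicate 3 also ended the call (adjusted p between 0.0511 and 0.0821). Against siCLOCK it did not pass (0.18, SE 0.07, adjusted p = 0.0669). With upper-quartile scaling LAMB1 was called higher in melatonin than in siCLOCK (0.19, adjusted p = 0.0477).

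Among the 3 beta genes, LAMB3 took 32.8%, 33.6% and 33.9% of the summed CPM per kb in control, 37.8%, 32.8% and 31.2% in siCLOCK and 19.3%, 20.2% and 19.8% in melatonin. The 3 genes had nearly equal shares in control. In melatonin LAMB2 held 42.9% and LAMB1 37.3%. These shares follow from the levels above and are given as a description.

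**Figure D4:**
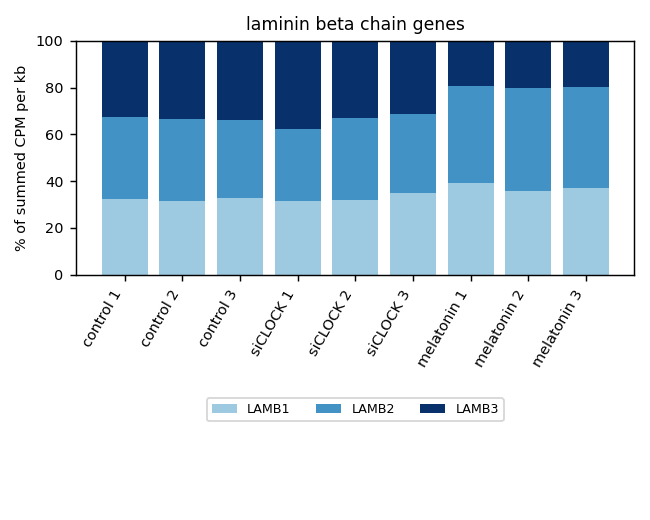
Share of each tested laminin beta gene in the summed CPM per kb of the beta genes, in percent, with 1 stacked bar per library. LAMB3 makes up 19.3% to 20.2% of the beta genes in melatonin libraries and 31.2% to 37.8% in the others.

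Of the gamma chains, LAMC1 (chromosome 1, 183023460 to 183145592), the partner in most laminins, was the abundant one. It read 142, 144 and 137 CPM in control, 175, 168 and 149.6 CPM in siCLOCK and 164, 165 and 164 CPM in melatonin. Both treated groups lay above the controls, with a mean of 164 CPM each (0.22, SE 0.07 in both). The melatonin call passed (adjusted p = 0.0219) and the siCLOCK one did not (adjusted p = 0.292). With the set term both passed, at 0.42 (adjusted p = 0.0188) and 0.28 (adjusted p = 0.0371). The 0.42 combines that 0.28, from siCLOCK replicates 1 and 2, with 0.13 of melatonin against the library labelled siCLOCK replicate 3. Without the set term the melatonin call was lost without control replicate 1 or 3 or any 1 melatonin library (adjusted p between 0.0596 and 0.0841). It was also lost with no filter on low counts (adjusted p = 0.0517) and on the reads of one strand (adjusted p = 0.0583). On the other strand it passed (0.24, adjusted p = 0.0219). The bases before its start (chr1:183023170-183023419, plus strand) held 3 GC boxes on either strand, in capitals.
LAMC1: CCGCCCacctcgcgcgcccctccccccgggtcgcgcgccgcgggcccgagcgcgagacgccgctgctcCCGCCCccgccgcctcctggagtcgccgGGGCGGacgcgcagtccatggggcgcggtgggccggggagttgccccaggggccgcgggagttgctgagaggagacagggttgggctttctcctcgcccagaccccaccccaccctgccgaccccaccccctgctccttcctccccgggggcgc

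LAMC3 (chromosome 9, 131009082 to 131094473), a gamma chain of restricted expression, read 16.5, 15.2 and 17.3 CPM in control, 19.2, 16.4 and 13.5 CPM in siCLOCK and 8.83, 12.8 and 9.91 CPM in melatonin. It fell against control (-0.63, SE 0.13, adjusted p = 0.00238) and siCLOCK (-0.63, SE 0.13, adjusted p = 0.00334). With the set term the values were -0.23 (adjusted p = 0.602) and -0.35 (adjusted p = 0.228), and the siCLOCK library nearest to melatonin was the one labelled siCLOCK replicate 3.

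Among the 15 genes with a mean of at least 10 CPM, the libraries of a group were not equally spread. The median coefficient of variation was 6.98% in control, 11.1% in siCLOCK and 4.58% in melatonin. The order was the same over all tested genes, so it is not particular to these. There, pairs of libraries within a group were compared by a chi-square of their counts per degree of freedom. It was 3.63 to 5.43 in control, 8.92 to 12.8 in siCLOCK and 1.67 to 3.14 in melatonin. Control replicate 3 was the lowest control for 10 of the 15. Within siCLOCK, replicate 2 was the highest for 8 genes, COL6A1, COL6A2, COL13A1, COL18A1, LAMA2, LAMA5, LAMB1 and LAMB2, and replicate 1 for 6. These counts were chosen after the values were seen.

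Other genes of matrix assembly were read from lists chosen by function. Of 26 tested genes of collagen synthesis and maturation, 3 were higher with melatonin than in control and 2 lower, where 11% of all genes were higher and 12.1% lower, shares against which the counts of the other lists in this comparison also stand. PPIB (0.36, adjusted p = 0.00127), which helps procollagen fold, and P3H4 (0.30, adjusted p = 0.0310) were among those that rose. PCOLCE (-0.33, adjusted p = 0.00342), an enhancer of procollagen processing, and PLOD3 (-0.21, adjusted p = 0.0310), a lysyl hydroxylase, fell. Of 6 tested cross-linking genes, none was higher and 2 were lower, LOX (-0.54, adjusted p = 0.0130) and LOXL2 (-0.22, adjusted p = 0.0433). Of 11 tested basement membrane partners, 3 were lower, SPARC (-0.66, adjusted p = 0.00262), FBLN1 (-0.45, adjusted p = 4.26e-04) and NID1 (-0.37, adjusted p = 0.00648), the last of which links laminin to type IV collagen. NID1 stood at 39.0 ± 3.38 CPM in control and 30.3 ± 0.859 in melatonin. With the set term 2 of the synthesis genes were higher (PPIB and P3H4), and none of the synthesis, cross-linking and partner genes was lower. Of 7 tested collagen receptors, ITGA2 (0.45, adjusted p = 8.36e-04) and ITGA1 (0.29, adjusted p = 0.0339) were higher with melatonin, and of 8 laminin receptors ITGA3 (0.49, adjusted p = 2.44e-04) was higher and ITGA6 (-0.29, adjusted p = 0.00223) and RPSA (-0.18, adjusted p = 0.0491) were lower. RPSA has many processed pseudogenes, so its count is uncertain. Processed pseudogenes took 0.163% to 0.172% of gene counts in the first technical set and 0.314% to 0.324% in the second. Their part in the RPSA result was not tested. With the set term ITGA3 passed (0.51, adjusted p = 0.0300) and the other 4 did not. Between melatonin and siCLOCK, 1 synthesis gene was higher and 2 lower, 4 cross-linking genes and 3 partner genes were lower with none higher, and 1 gene was higher and 1 lower in each of the receptor lists, where 7.43% of all genes were higher and 10.1% lower. With the set term no synthesis gene passed in that comparison, and 1 cross-linking gene (LOXL2), 1 partner gene (SPARC), 1 collagen receptor (ITGA10) and 1 laminin receptor (ITGA6) were lower and 1 laminin receptor (ITGA3) was higher. Between siCLOCK and control, ITGA10, a collagen-binding integrin, was the one gene of these lists that passed (0.61, adjusted p = 0.00119). KRT8, KRT18 and VIM, abundant genes of this line, were also lower with melatonin than in control (-0.31, -0.31 and -0.30). None of the 3 passed with the set term (-0.14, -0.04 and -0.28, adjusted p = 0.611, 0.906 and 0.156), and their part in these results was not tested.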

How the data were processed

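Total RNA of 9 H1299 libraries (3 per group) was sequenced as paired reads on a BGIseq500 instrument, per the labels. Reads were aligned to GRCh38 (hg38) with STAR 2.7.9a, per the submitters' processing notes. In the deposited files each gene has a raw count regardless of strand, which was used, and 1 for each strand. The totals of the strand counts were nearly equal in each library (ratio 1.01 to 1.05), so each holds only part of a gene's reads. All 58721 identifiers matched GENCODE release 29, which was inferred from them and supplied symbols, types and exons. Reads shared by overlapping or near-identical genes cannot be separated in such counts. Summary lines that name no gene held 20.3% to 21.8% of reads and stayed out of library sizes.

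In R 4.3.3 with edgeR 4.0.16, filterByExpr kept 16441 genes, libraries were scaled with TMM, and all 9 libraries entered 1 quasi-likelihood fit with the 3 groups as terms (biological coefficient of variation 0.0682). P-values of the two-sided F tests were adjusted by Benjamini-Hochberg over every tested gene, with 0.05 as the threshold for passing. Fold changes are log2, their SE is the absolute fold change over the root of F, and levels are TMM-scaled CPM with the SD over 3 libraries. The procedure was tested on simulated counts with the same spread in every group and no technical set. That test thus says nothing on the set or on the unequal spread of the groups. Technical sets were divided at 1.8% unmapped reads. Every collagen and laminin gene is accounted for, genes that passed in any comparison and the highest per class are given by library, and up to 4 genes with the smallest p are named per other list. The members, lists and technical sets were chosen with earlier results of these data known. Alternatives were DESeq2 1.42.0, limma-voom (limma 3.58.1), other scalings, filters, count columns, thresholds, sets of libraries, a replicate block and the set term. The results of 1 member are not reported here.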

Additional observations from a re-analysis of the deposited data

How the results depend on the processing

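No called gene changed sign under an alternative. COL17A1 and LAMB3 passed in both melatonin comparisons under every alternative run for them, as did COL16A1 against control. COL13A1 and LAMB2 against siCLOCK passed under all but the requirement of an absolute log2 fold change of 0.5. For siCLOCK against control, the 0 genes higher became 2 with DESeq2, with no filter and with the technical set term, and 0 to 2 when single libraries were left out, and the 0 lower became 1 with no filter and 0 to 1 when single libraries were left out. For melatonin against control, the 4 genes higher became 1 with the technical set term, 3 with no filter and with the counts of 1 strand, 2 at an adjusted p under 0.01, 0 when an absolute log2 fold change of 0.5 was also required, and 2 to 6 when single libraries were left out (2 without melatonin replicate 1 or 3, 6 without the library labelled siCLOCK replicate 3). With only the 6 libraries compared, COL5A2 and COL18A1 were also higher. The 8 lower became 5 with a filter of 5 CPM in 3 libraries, which removes scarce genes, 3 with the set term, and 6 to 8 when single libraries were left out. For melatonin against siCLOCK, the 2 genes higher became 1 with no filter, with the counts of 1 strand, with the set term and at an adjusted p under 0.01, 0 when an absolute log2 fold change of 0.5 was also required, and 1 to 2 when single libraries were left out (1 without siCLOCK replicate 1 or 2 or any 1 melatonin library). With upper-quartile scaling LAMB1 was also higher in that comparison. The 8 lower became 6 with DESeq2, 5 with the counts of 1 strand and at that fold change, 3 with the set term, and 7 to 8 when single libraries were left out. Apart from the filter and the fold threshold, the cause was not tested. Among the alternatives, the share of all genes called was computed for the set term alone. The other counts are therefore not set against such a share.

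Replicate numbers did not pair the samples: deviations of same-numbered libraries correlated between -0.0923 and 0.0629, and those of other pairs between -0.120 and 0.133. A replicate block left the counts at 0 higher and 0 lower for siCLOCK against control, 4 and 8 for melatonin against control, and 2 and 8 for melatonin against siCLOCK. Depth limits the scarce genes: COL6A3 rests on 3 to 22 counts per library.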
